A study of Homo sapiens with 68 samples.

Results

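Very long genes were defined here from the peak lists themselves, as Ensembl gene identifiers whose peaks, pooled over all 68 lists of the series, reach over at least 500000 nt from the lowest start to the highest end. The rule gave 264 of 22843 genes, and these 264 genes hold 1100869 of the 15800601 listed peaks. The span was thus chosen from the measured peaks, and nothing below tests it. The genes span 500.3 to 2272.0 kb with a median of 706.6 kb, and 49 of them span at least 1000 kb. Gene names are not given, because the lists pair identifiers with no names.

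Transcripts of very long genes consist almost wholly of intron, and RNA polymerase needs hours to reach their 3′ ends. Their introns are coated during transcription by heterogeneous nuclear ribonucleoproteins, abundant nuclear RNA-binding proteins that bind short, common elements. Of the proteins studied, hnRNPA1 and hnRNPc act on splicing and on packaging of nascent RNA, and hnRNPI, also known as polypyrimidine tract-binding protein, binds pyrimidine-rich intronic RNA. RBFOX2 is a splicing factor that binds the GCAUG element, often in introns beside alternative exons.

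The data are from TLC-CLIP, in which RNA bound to an immunoprecipitated protein is sequenced after crosslinking of living cells with ultraviolet light (UV), in 293T cells, a human embryonic kidney line. There are 34 groups of 2 libraries: 44 crosslinked libraries, 16 libraries titled noUV and 8 from other regions of an hnRNPc gel. The comparisons use 32 libraries in 16 groups, with hnRNPA1, hnRNPc, hnRNPI and RBFOX2 each present with and without UV and with and without PAGE, the gel purification of the complexes. All 32 used low RNase (0.005 U) and 50000 cells per the labels. Outside them, the labels give 0.001 U and 10000 cells for the libraries titled 10k and the gel regions. For those titled 1k they give 0.0001 U and 1000 cells. Absence of UV was read from the titles, since every sample carries the same protocol text. Every library without UV belongs to a run of accessions separate from that of the crosslinked libraries it is compared with, so if the runs reflect batches, batch and UV cannot be told apart. The labels do not say whether replicates are separate cultures, so p-values measure the spread between these libraries, which may be technical.

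The number of sequenced reads is unknown, and list length stands in for depth only loosely. The 32 lists hold 3268 to 523402 peaks. The list of hnRNPc_50k_lowRNase replicate 1 stands apart with 3268 peaks against 214849 in replicate 2, and most results that rest on it are also given without it. Lists without UV were shorter than their crosslinked counterparts for hnRNPA1, hnRNPI and RBFOX2, down to 18690 peaks for noUV_hnRNPI replicate 1. Each peak name ends in a number that is taken here as its read number. The sources do not define it, it is not scaled, and no counting interval can be given.

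The peaks were concentrated in few of the genes. In the 44 crosslinked lists the 264 genes hold 974511 peaks, with a median of 1055.5 per gene and a range from 5 to 30038. The 12 genes with the most peaks hold 25.57% of them and 32 genes hold 50%, whereas the 77 genes with under 100 peaks over all lists hold 0.286%. A peak in at least 60 of the 68 lists was found for 83 genes. The genes lie on both strands, 140 on plus and 124 on minus. A peak whose exact interval is also listed under another gene made up 2.502% of peaks in very long genes and 6.935% of all peaks.

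All coordinates are those of the lists, whose build is hg19 per the submitters' processing notes. The gene with the most peaks was ENSG00000158321 at chr7:69063931-70257822 on the plus strand, with 30038 peaks in crosslinked lists, and the next was ENSG00000183098 at chr13:93879120-95058745, also plus, with 29476. The densest of the 12 was ENSG00000267374 at chr18:36787263-37380268 on the minus strand, with 22579 peaks or 3808 per 100 kb pooled over the 44 lists. The least dense of the 12, ENSG00000168702 at chr2:140994704-142888587 on the minus strand, held 20213 peaks, or 1067 per 100 kb. The other 8 of the 12 (ENSG00000189283, ENSG00000186153, ENSG00000100154, ENSG00000182185, ENSG00000169855, ENSG00000185532, ENSG00000162599 and ENSG00000085276) held between 15669 and 21238 peaks.

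Length alone did not order the genes by peaks. The 3 longest spans, 2272.0 kb in ENSG00000174469, 2249.6 kb in ENSG00000153707 and 2114.6 kb in ENSG00000150672, held 420, 2798 and 1055 crosslinked peaks. Just inside the threshold lie ENSG00000243566 (500342 nt, 5480 crosslinked peaks) and ENSG00000196104 (500968 nt, 661). Just outside lie ENSG00000139734 (498191 nt, 8066) and ENSG00000153956 (497240 nt, 6989).

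Peak density differed by protein and condition. Without PAGE, the crosslinked hnRNPA1 lists held 19.2 and 20.4 peaks per 100 kb of very long gene, the hnRNPI lists 16.5 and 15.9, and the hnRNPc lists 13.5 and 14.7. The RBFOX2 lists held 3.00 and 3.07. Without UV and without PAGE the densities were 5.26 and 6.44 for hnRNPA1, 4.53 and 7.55 for hnRNPc, 1.34 and 2.50 for hnRNPI, and 0.337 and 0.408 for RBFOX2. Among these libraries without PAGE, both of every protein without UV lay below both crosslinked ones. With PAGE the same held for hnRNPA1 (5.25 and 4.71 without UV, 20.1 and 19.3 with), hnRNPI (0.580 and 1.17 against 14.3 and 13.1) and RBFOX2 (0.168 and 0.138 against 7.06 and 5.18). For hnRNPc with PAGE the order was the opposite, 8.93 and 9.29 without UV against 0.0505 and 6.39, the first of these from the short list. Density is not scaled for list length, which moved the same way in each case.

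Density fell with span in every one of the 16 groups as plotted by span class. In the crosslinked hnRNPA1 lists without PAGE the mean density was 57.6 peaks per 100 kb in the 19563 genes under 100 kb, 45.3 in the 2310 genes of 100 to 250 kb and 32.5 in the 706 genes of 250 to 500 kb. It was 22.0 in the 215 genes of 500 to 1000 kb and 15.1 in the 49 longer ones. Across the same classes RBFOX2 without PAGE went from 25.8 to 2.19, and without both UV and PAGE from 10.9 to 0.180. The span is set by the peaks themselves, so these values are a description.

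**Figure D1:**
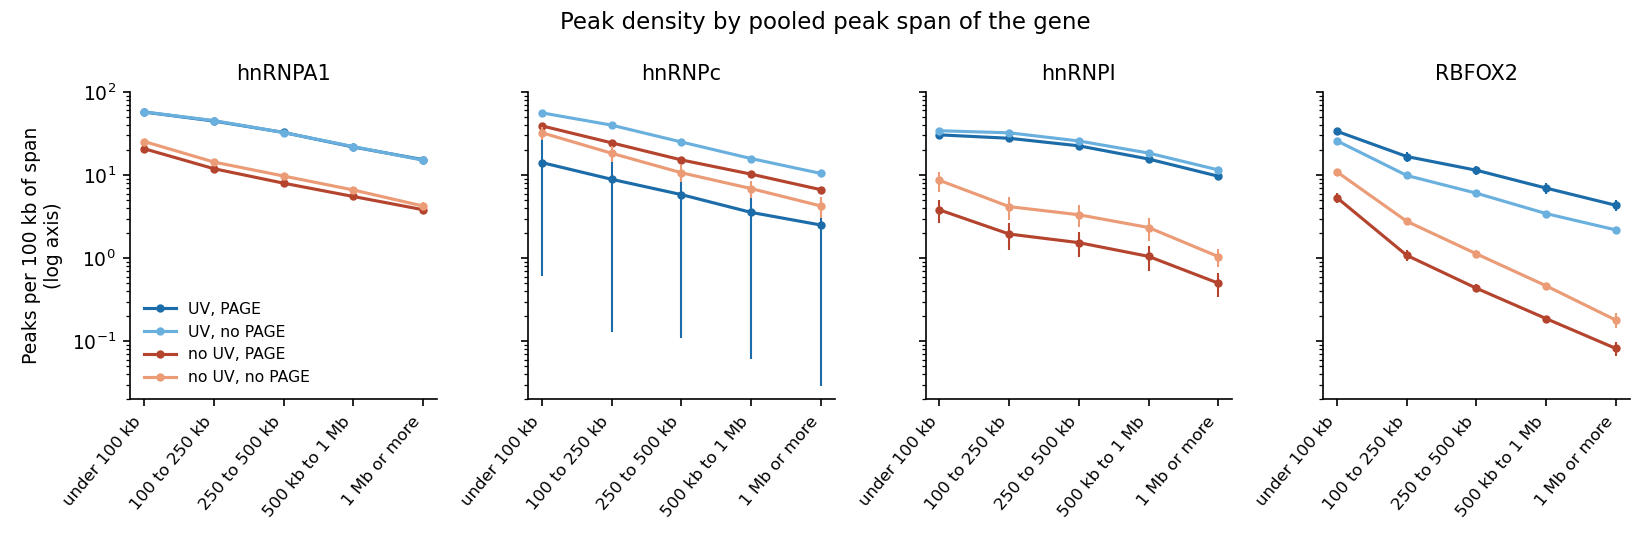
Mean number of peaks per 100 kb of pooled span (log axis) against span class, for each protein, in the 4 combinations of UV and PAGE; points are means of 2 libraries and vertical lines run from the lower to the higher library. Density falls from left to right in every panel, and the long lines of hnRNPc with UV and PAGE come from its list of 3268 peaks.

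The share of listed peaks that fell in very long genes is scaled to list length. In crosslinked libraries without PAGE it was highest for hnRNPI, with 9.96% and 9.97%, followed by hnRNPA1 with 8.22% and 8.34% and hnRNPc with 6.53% and 6.67%. RBFOX2 had the lowest share, with 4.08% and 4.07%. No 2 proteins overlapped, and the range of the means was 5.89 percentage points (exact permutation test over all assignments of the 8 libraries, p = 0.00952, the smallest it allows, adjusted p = 0.0229 over 12 tests). Abutting peaks of one gene can carry the same read number, so summed read numbers count some reads more than once. The share of summed read numbers ranked the proteins alike: 6.74% ± 0.115 (SD, n = 2) for hnRNPI, 4.59% ± 0.0328 for hnRNPA1, 3.85% ± 0.0454 for hnRNPc and 2.17% ± 0.267 for RBFOX2. The range was 4.57 percentage points (exact permutation p = 0.00952, adjusted p = 0.0229). A single site described further down made up 72% and 68.3% of the RBFOX2 read numbers in very long genes. It is listed as 6 peaks of nearly the same read number, each counted, so these percentages overstate it. With peaks joined within 30 nt and the highest read number kept, the shares were 8.20% ± 0.0131 (SD, n = 2) for hnRNPI, 6.20% ± 0.0627 for hnRNPA1, 4.70% ± 0.0455 for hnRNPc and 1.97% ± 0.0876 for RBFOX2.

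Omitting PAGE gave no shift common to the proteins. The share of peaks was 8.35% and 8.21% with PAGE and 8.22% and 8.34% without for hnRNPA1, and 9.78% and 9.51% with and 9.96% and 9.97% without for hnRNPI. For RBFOX2 it was lower without PAGE in both libraries, from 5.79% and 5.32% to 4.08% and 4.07%. For hnRNPc it was 3.30% and 6.36% with PAGE, the first from the short list, and 6.53% and 6.67% without. The mean difference over proteins was 0.15 percentage points (exact two-sided permutation p = 0.840, adjusted p = 0.840). Leaving out the short list turned it to −0.23 (exact permutation p = 0.330), and taking 10000 smallest-p peaks per list gave −0.79 (exact permutation p = 0.0247). The short list has fewer and entered that setting whole, with 3268 peaks, wherever libraries with PAGE are compared. The share of read numbers differed by −0.49 percentage points (exact permutation p = 0.299, adjusted p = 0.359), and by −0.90 without the short list (exact permutation p = 0.00463, not adjusted).

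Without UV, very long genes took a smaller share of the peaks. Among libraries without PAGE, the share fell in all 4 proteins with no overlap: to 6.24% and 7.02% for hnRNPA1, 5.16% and 5.80% for hnRNPc, 6.51% and 6.77% for hnRNPI, and 1.36% and 1.43% for RBFOX2. The mean difference was −2.19 percentage points (exact two-sided permutation p = 0.00154, the smallest it allows, adjusted p = 0.00926). Lists without UV were shorter, and with 10000 smallest-p peaks per list the difference was −0.65 (exact permutation p = 0.295). There the hnRNPI share was higher without UV, with 9.24% and 9.89% against 7.35% and 7.45%, and RBFOX2 had 0.56% and 0.58% against 0.58% and 0.48%. The part of list length in this result was not tested beyond that.

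Among libraries with PAGE the share without UV was 6.86% and 6.85% for hnRNPA1, 6.63% and 6.78% for hnRNPI and 1.19% and 1.29% for RBFOX2, each below both crosslinked libraries. For hnRNPc it was 6.38% and 6.64%, above both crosslinked libraries. The mean difference was −1.75 percentage points (exact permutation p = 0.0494, adjusted p = 0.0658), and without the short hnRNPc list −2.13 (exact permutation p = 0.00772, not adjusted). With the short list as the lone hnRNPc library of its group it was −1.37 (exact permutation p = 0.182). The smallest-p peaks gave −2.08 (exact permutation p = 0.00617, not adjusted). With PAGE the share of read numbers fell by 1.46 percentage points, in the same direction in 4 of 4 proteins (exact permutation p = 0.0231, adjusted p = 0.0397). Without PAGE it fell by 0.74, in 2 of 4 proteins (exact permutation p = 0.0432, adjusted p = 0.0648). The fall with PAGE was 1.05 without hnRNPc_50k_lowRNase replicate 2 (exact permutation p = 0.110, not adjusted) and 1.40 without noUV_hnRNPc replicate 1 (exact permutation p = 0.0725, not adjusted). With 10000 smallest-p peaks per list, read numbers differed by −0.27 with PAGE (exact permutation p = 0.566) and by 0.91 without (exact permutation p = 0.157). With peaks joined, which counts a stack once, the differences were −1.56 with PAGE (exact permutation p = 0.0216) and −1.30 without (exact permutation p = 0.00154), neither adjusted.

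**Figure D2:**
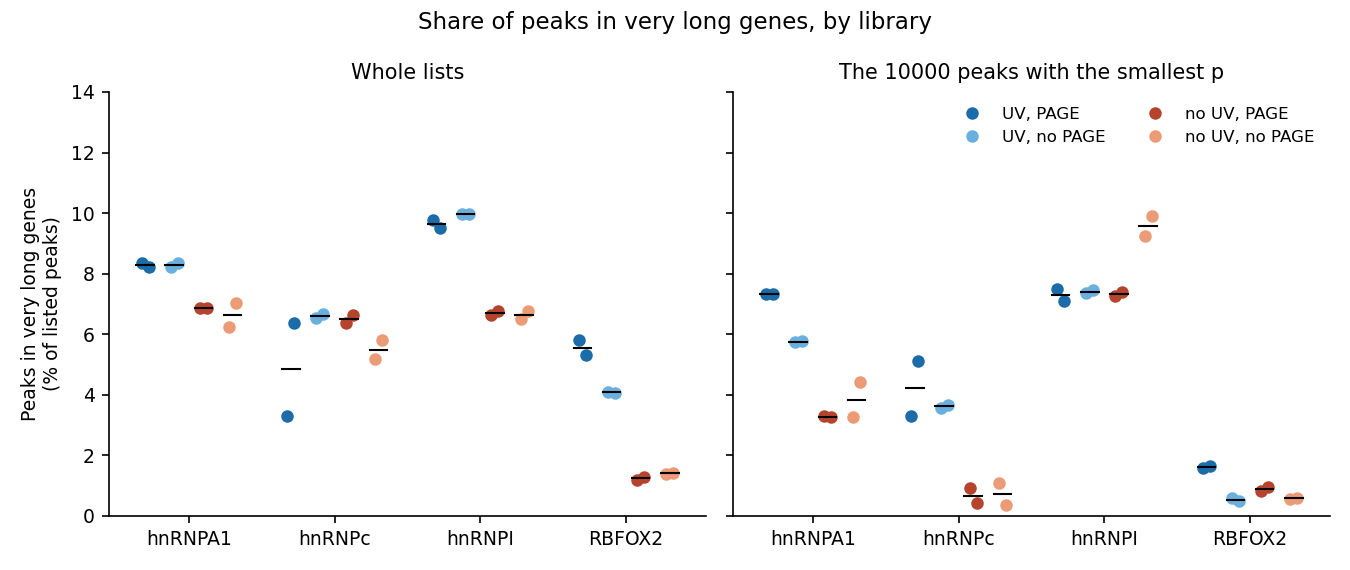
Percent of listed peaks in very long genes in each of the 32 libraries, by protein, for whole lists (left) and for 10000 smallest-p peaks per list (right); dots are libraries, bars are means of 2, and colours give UV and PAGE; the hnRNPc list of 3268 peaks is whole in both panels. In whole lists the libraries without UV lie below the crosslinked ones for hnRNPA1, hnRNPI and RBFOX2, while on the right hnRNPI without UV and PAGE lies highest, at 9.24% and 9.89%.

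Peaks lay towards the 5′ end. Position was taken as the place of the peak centre in the pooled span, from 0 at the 5′ end to 1 at the 3′ end along the strand. The mean position was below 0.5 in 32 of 32 libraries, and of 10 equal parts of the span the first held more peaks than the last in 32 of 32. In crosslinked libraries without PAGE the first part held 21.5% of the peaks of hnRNPA1, 23.6% of hnRNPc, 18.7% of hnRNPI and 26.1% of RBFOX2, and the last part held 4.1%, 3.9%, 4.5% and 5.0%. In all 16 groups the genes of 500 to 1000 kb and the longer ones had lower mean positions than genes of 100 to 250 kb. For hnRNPA1 without PAGE these means were 0.357, 0.378 and 0.456. The class of 250 to 500 kb is not set beside them here, so these values do not part very long genes from the next shorter ones. Over all lists, the genes just outside the threshold had mean positions of 0.308 (ENSG00000153956) and 0.481 (ENSG00000139734). Those just inside had 0.225 (ENSG00000243566) and 0.237 (ENSG00000196104).

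The mean position differed by protein. Without PAGE and with UV it was 0.362 in both hnRNPA1 libraries, 0.341 and 0.344 for hnRNPc, 0.385 and 0.384 for hnRNPI, and 0.323 and 0.321 for RBFOX2. No 2 proteins overlapped, and the range of the means was 0.062 (exact permutation p = 0.00952, adjusted p = 0.0229). The order depended on which peaks were taken. With 10000 smallest-p peaks per list RBFOX2 went from the most 5′ to the most 3′, at 0.362 and 0.361. The others were at 0.293 and 0.285 for hnRNPI, 0.265 and 0.249 for hnRNPc and 0.238 and 0.239 for hnRNPA1. Those RBFOX2 means rest on few peaks, 0.58% and 0.48% of the 10000, against 3.55% to 7.45% for the other proteins. Omitting PAGE moved the mean by 0.013 (exact permutation p = 0.367, adjusted p = 0.401), and by 0.0055 without the short list. RBFOX2 moved the other way, by −0.025. With 10000 smallest-p peaks per list the mean moved by 0.060.

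Without UV the peaks were less concentrated at the 5′ end. With PAGE the mean position rose in 4 of 4 proteins: from 0.359 and 0.357 to 0.392 and 0.387 for hnRNPA1, from 0.246 and 0.306 to 0.345 and 0.336 for hnRNPc, from 0.378 and 0.378 to 0.414 and 0.430 for hnRNPI, and from 0.350 and 0.345 to 0.411 and 0.411 for RBFOX2. The mean rise was 0.051 (exact permutation p = 0.00154, adjusted p = 0.00926), and 0.044 without the short list. Without PAGE it was 0.035 (exact permutation p = 0.0123, adjusted p = 0.0247), with 3 proteins rising and hnRNPc falling by 0.014. With 10000 smallest-p peaks per list the rises were 0.079 with PAGE and 0.072 without, each in 4 of 4 proteins (exact permutation p = 0.00154, not adjusted). Some of these means rest on few peaks. In hnRNPc and RBFOX2 libraries without UV, very long genes held 0.34% to 1.08% of the 10000. In crosslinked RBFOX2 libraries without PAGE they held 0.58% and 0.48%. For hnRNPI without PAGE the first part went from 18.7% to 14.5% of the peaks, and the last from 4.5% to 7.2%.

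**Figure D3:**
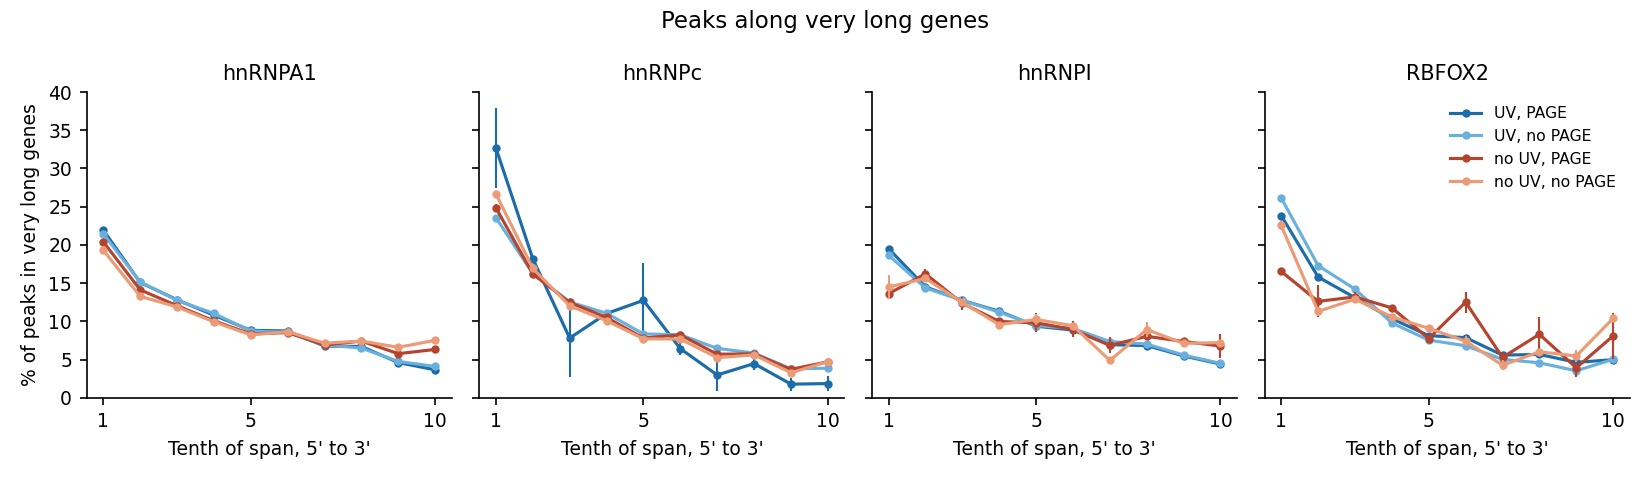
Percent of the peaks in very long genes that fall in each of 10 equal parts of the pooled span, 5′ to 3′, by protein and by UV and PAGE; points are means of 2 libraries and vertical lines run from the lower to the higher library. The first part lies above the last in every line, and without UV the hnRNPI line starts lower, at 14.5% without PAGE.

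Single genes departed widely from the common profile. Of the 177 genes with at least 200 pooled peaks, 152 had a mean position below 0.5, with a median of 0.323. The most 5′ were ENSG00000144451 at 0.035 (chr2:214149154-215257159, plus) and ENSG00000145216 at 0.054 (chr4:54243823-55151885, plus). The most 3′ were ENSG00000198947 at 0.932 (chrX:31137368-33181669, minus) and ENSG00000253350 at 0.927 (chr8:105605391-106431477, plus). Of the 12 most peaked genes, ENSG00000168702 had a mean position of 0.156 and ENSG00000169855 of 0.767.

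Peaks in very long genes mostly held fewer reads than those of all other genes pooled, a trait shared in part with the next shorter class. The median read number was below that of other genes in 28 of 32 libraries, equal in 3 and above in 1, noUV_noPAGE_hnRNPI replicate 1, with 11 against 9. In hnRNPA1 without PAGE the medians were 9 against 11 in both libraries, and in RBFOX2 without PAGE 7 and 6 against 11. Against genes of 250 to 500 kb, the group medians of genes of 500 to 1000 kb were lower in 10 of 16 groups and equal in 6, by at most 1.5 reads. Longer genes were not part of that comparison. Median reads in the first part were above those of the 3′ side of the span in 16 libraries, below in 3 and equal in 13.

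Gene by gene, peaks per 100000 listed peaks were compared on the log2 scale, 0.5 being added to each peak number, with limma over all 11579 genes that had at least 64 peaks in the 32 lists. Of the 264 genes, 186 passed that filter, so counts below are not over all of them. Fitted differences of genes with no peak in a group depend on the number added. Scaling the 0.5 to list length, added after seeing the data, moved the median of all genes from −0.18 to 0.56 for PAGE omission, from 0.00 to −0.46 without UV and PAGE, and from −0.09 to −0.33 without UV and with PAGE. Very long genes are therefore read against that median. The shares called are not matched for the number of peaks per gene, which bears on how readily a gene is called.

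Omitting PAGE changed 0 of the 186 genes at an adjusted p below 0.05 by limma, with 0% of all tested genes called; 11 genes (5.91%) had an unadjusted p below 0.05, against 6.88% of all genes. Without hnRNPc_50k_lowRNase replicate 1 there were 5 calls (2.69%, against 1.49% of all tested genes), and without replicate 2 of that group, which leaves the short list alone, 42 (22.6%, against 29.6%). The median difference of the very long genes was 0.00 against −0.18 for all genes, and 0.75 against 0.56 with the 0.5 scaled.

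Without UV and without PAGE, limma called 97 of the 186 genes lower and 10 higher, 52.2% and 5.38%, against 22.1% and 18.4% of all tested genes. The median difference was −0.74, against 0.00 for all. With 0.5 scaled to list length the counts were 59 lower (31.7%) and 7 higher (3.76%), against 20.3% and 7.95% of all tested genes, and the medians −0.91 and −0.46, a smaller gap in the share called lower. Of these calls, 59 were shared with the first setting. ENSG00000139173 (chr12:44231120-44779755) fell by 2.78 (SE 0.25, limma adjusted p = 3e-07), from 247 and 249 peaks to 48 and 64 for hnRNPA1 and from 202 and 200 to 0 and 2 for hnRNPI. ENSG00000172915 (chr13:35516426-36245540) fell by 2.61 (SE 0.36, limma adjusted p = 1.78e-05). Of the 10 genes called higher, 4 had fewer than 64 peaks in the 16 crosslinked lists and so needed their peaks without UV to pass the filter. The 2 with the largest fitted differences are among them and are given as values with no test: ENSG00000234828 (chr4:150299469-150815175) had 29 peaks in the crosslinked lists and 68 in those without UV, and ENSG00000184985 (chr4:7195333-7710563) had 44 and 60. Of the 97 called lower, 4 needed their crosslinked peaks to pass.

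With PAGE, limma called 73 genes lower and 9 higher without UV, 39.2% and 4.84%, against 15.7% and 8.93% of all tested genes. The median was −0.56 against −0.09. The excess over all genes depended on the scaling. Centring each library on the median gene gave 31 lower and 17 higher, together 25.8% against 26.4% of all tested genes. Scaling the 0.5 gave 26 lower (14%) and 12 higher (6.45%), against 11.2% and 6.92% of all, with medians of −0.37 and −0.33. Without hnRNPc_50k_lowRNase replicate 1 there were 126 calls, 88 lower and 38 higher, 67.7% against 47.2% of all. ENSG00000145982 (chr6:5261759-5770353) fell by 2.45 (SE 0.22, limma adjusted p = 1.54e-06) and ENSG00000218336 (chr4:183066200-183722258) by 2.15 (SE 0.26, limma adjusted p = 2.21e-05). The latter went from 417 and 391 peaks to 82 and 69 for hnRNPA1, and from 191 and 156 to 0 and 0 for hnRNPI. Of the 9 genes called higher, 2 had fewer than 64 crosslinked peaks and so needed their peaks without UV to pass the filter. These 2, ENSG00000234828 and ENSG00000184985, had the largest fitted differences and are given above as values with no test. Of the 73 called lower, 3 needed their crosslinked peaks to pass.

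Between proteins, in crosslinked libraries without PAGE, hnRNPI and RBFOX2 stood on opposite sides. Each protein was set against the mean of the others, so each enters the other's comparison and these are not independent results. For hnRNPI against the mean of the other proteins, limma called 65 genes higher and 1 lower, 34.9% and 0.538%, against 4.69% and 14.8% of all tested genes, with a median of 1.07 against −0.16. Scaling the 0.5 left 25 calls, all higher (13.4%, against 2.89% of all genes). Leaving out hnRNPI_50k_noPAGE replicate 1 or 2 left 10 and 9 calls (5.38% and 4.84%), no more than the 6.66% and 6.02% of all genes called either way. Leaving out either library of hnRNPA1_50k_noPAGE gave 42 and 41 (22.6% and 22%, against 15.5% and 15.9%) and of hnRNPc_50k_noPAGE 42 and 43 (22.6% and 23.1%, against 15.5% and 15.9%). Leaving out either library of hnRNPc_50k_lowRNase gave 110 (59.1%, against 37.4%). ENSG00000233723 (chr2:58656918-59242776) was higher by 3.70 (SE 1.04), with 15 and 12 peaks for hnRNPI, 1 and 2 for hnRNPA1, 2 and 0 for hnRNPc and none for RBFOX2. ENSG00000234828 was higher by 3.75 (SE 1.06). These genes had 56 and 29 peaks in the crosslinked lists and needed their peaks without UV to pass the filter. Both are given as values with no test. The gene called lower was ENSG00000129521 (chr14:34393588-34931453), by −1.96 (SE 0.63, limma adjusted p = 0.0334), with 13 and 11 peaks for hnRNPI against 65 and 74 for hnRNPA1.

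For RBFOX2 against the others, limma called 104 genes lower and 1 higher, 55.9% and 0.538%, against 16.9% and 24.1% of all tested genes, with a median of −1.41 against 0.08. Without RBFOX2_50k_noPAGE replicate 1 or 2 there were 47 and 49 calls (25.3% and 26.3%, against 19% and 19.4% of all genes). With the scaled addition there were 31, which at 16.7% is below the 19.8% of all genes called either way, although 30 were lower (16.1%, against 8% of all) and the medians were −1.46 and 0.00. ENSG00000048052 (chr7:18127296-19036678) was lower by −4.93 (SE 0.66, limma adjusted p = 4.63e-05), with no RBFOX2 peak against 72 and 55 for hnRNPI and 44 and 55 for hnRNPA1. ENSG00000196104, just above the span threshold, was lower by −3.46 (SE 0.74, limma adjusted p = 0.00136), with 0 and 2 RBFOX2 peaks. The gene called higher was ENSG00000184985, with 3 and 3 RBFOX2 peaks, which also needed its peaks without UV to pass the filter.

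For hnRNPc limma called 2 genes, both lower (1.08%), against 1.74% of all tested genes called lower, 1.05% higher and 2.8% either way. They were ENSG00000166833 (chr11:19378123-20142796), with 1 and 3 peaks against 19 and 25 for hnRNPA1, and ENSG00000182771 (chr10:87362730-88126148), with 96 and 110 against 248 and 234. Without either library of hnRNPc_50k_lowRNase there were 21 calls (11.3%, against 16.7% of all genes), and without either library of hnRNPc_50k_noPAGE there were 0. Leaving out any other library left 1 to 3. For hnRNPA1 limma called 0 genes, with 0.155% of all tested genes called; 19 (10.2%) had an unadjusted p below 0.05, against 9.87% of all, and without either library of hnRNPc_50k_lowRNase there were 4 calls (2.15%, against 5.79% of all).

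**Figure D4:**
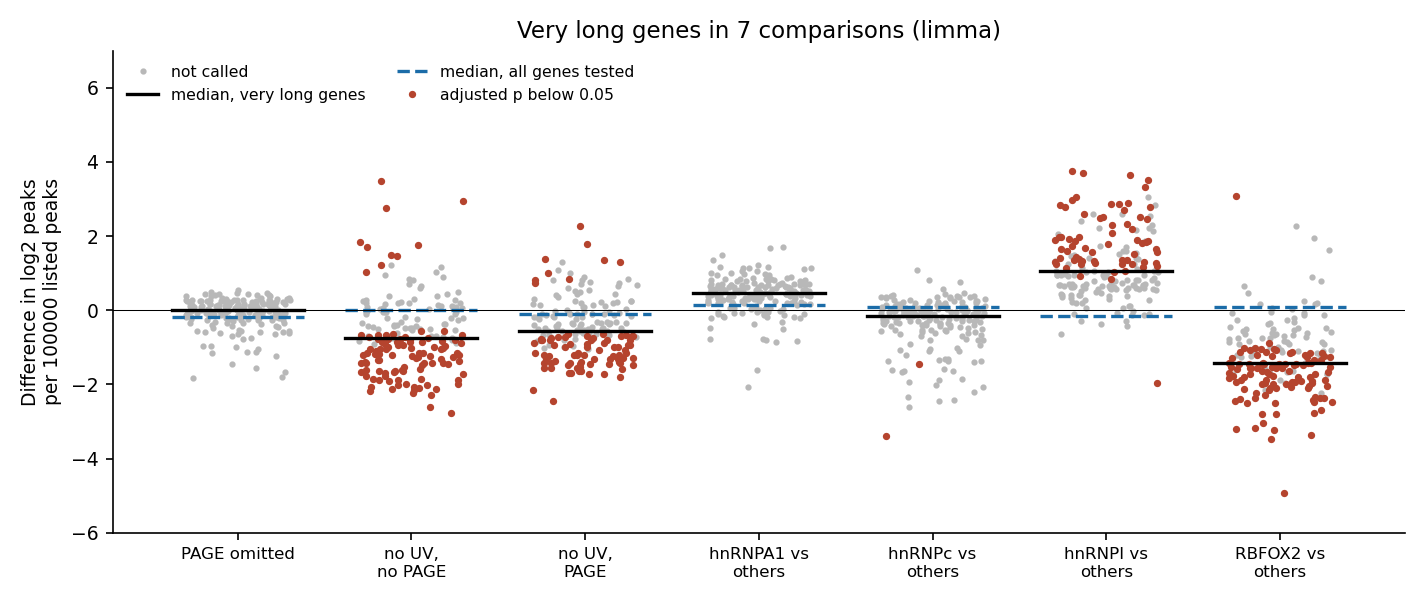
Difference in log2 peaks per 100000 listed peaks for each of the 186 very long genes tested, in 7 comparisons; red points have a limma adjusted p below 0.05, black lines are medians of these genes and dashed blue lines medians of all 11579 genes tested. The medians part most for hnRNPI, at 1.07 against −0.16, and for RBFOX2, at −1.41 against 0.08.

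Peaks in very long genes recurred less often between replicates. The percent of peaks of one replicate overlapped on its strand, by 1 nt or more, by a peak of the other, averaged over both directions, was 46.2% in very long genes against 52.4% in other genes for hnRNPA1 with UV and without PAGE. It was 35.9% against 46.7% for hnRNPc, 54.2% against 59.0% for hnRNPI and 34.4% against 49.0% for RBFOX2. Over the 16 groups the mean difference was −5.80 percentage points, lower in very long genes in 14 groups (exact two-sided sign-flip permutation test over groups, p = 0.000763). The exceptions were both hnRNPI groups without UV, with 18.3% against 15.4% and 51.2% against 47.1%. The test takes the groups as independent although each protein gave several of them, so its p-value may be too small. The hnRNPc group with UV and PAGE includes the short list, with 80.6% and 0.71% in the 2 directions in very long genes. Among peaks of 4 to 10 reads the difference was −0.55 (exact permutation p = 0.358). Overlap between proteins, without PAGE and as a description, was lower in very long genes than in other genes for 8 of 12 ordered pairs and higher for 4. RBFOX2 peaks overlapped 4.04% of hnRNPA1 peaks against 7.79%, and 4.56% of hnRNPI peaks against 8.30%. In the other direction, hnRNPI peaks overlapped 23.3% of RBFOX2 peaks against 17.5%, and hnRNPA1 peaks 25.5% against 24.2%.

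**Figure D5:**
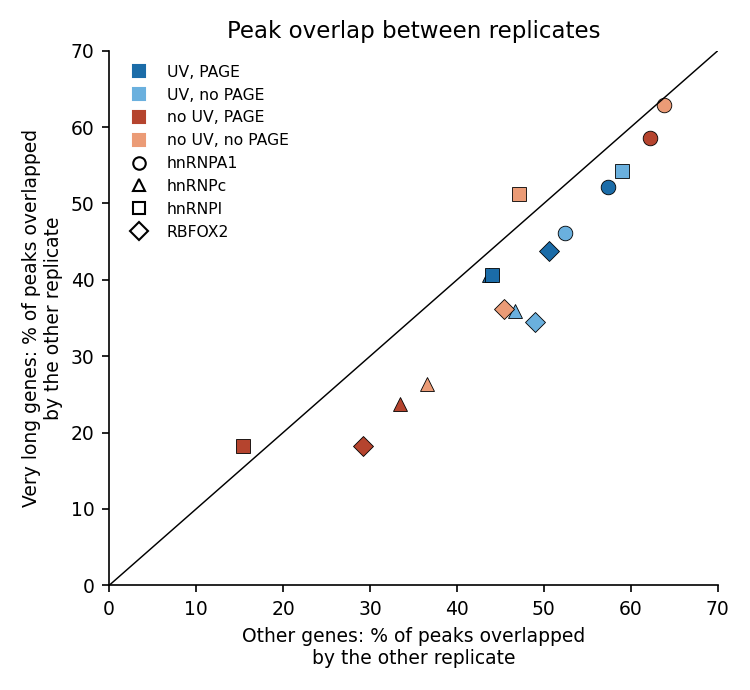
Percent of peaks overlapped by the other replicate, in very long genes (vertical) against other genes (horizontal), for the 16 groups, with colour for UV and PAGE, shape for protein and the line of equal values. Points lie below the line in 14 groups, and the 2 above it are hnRNPI without UV, at 18.3% and 51.2%.

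The highest read numbers came from few sites. In each protein without PAGE the peak with the highest read number shared by both replicates lay in ENSG00000242808, at chr3:180949534-180949584 on the plus strand for hnRNPA1 and inside chr3:180949525-180949584 for all proteins. Read numbers there were 1303 and 1439 for hnRNPA1, 2670 and 3119 for hnRNPc, 2654 and 2459 for hnRNPI, and 26139 and 22157 for RBFOX2. With UV and PAGE the highest read number here was 60 and 51 for hnRNPA1 and 13 and 76 for hnRNPc. The 13 is from the short list. For hnRNPI it was 136 and 48, and for RBFOX2 1458 and 1208. The site was also present without UV and PAGE, at 950 and 1202, 1586 and 6152, 3454 and 6378, and 7025 and 8807 in the same order. Without UV and with PAGE the values in that order were 247 and 122, 1260 and 3933, 172 and 239, and 1824 and 1615. This site exceeded 1000 reads in 38 of the 68 lists.

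Below it, the leading peaks differed by protein. For hnRNPA1 they were chr13:67804371-67804468 on the minus strand, at the 5′ end of ENSG00000184226, with 294 and 286 reads, and chr13:94003633-94003869 in ENSG00000183098, with 256 and 234. The first had 828 and 1076 reads for hnRNPA1 without UV and PAGE and 0 to 21 for the other proteins there. For hnRNPI they were chr18:37091733-37092068 in ENSG00000267374, with 793 and 739 reads, and chr3:78933108-78933206 in ENSG00000169855, with 670 and 883. Without UV and PAGE these hnRNPI sites had 584 and 717, and 1181 and 1468. For hnRNPc they were chr13:67778424-67778616 in ENSG00000184226, with 166 and 167 reads, and chr1:61594175-61594236 in ENSG00000162599, with 125 and 143. For RBFOX2 they were chr1:237766468-237766498 in ENSG00000198626, with 1220 and 1209 reads, and chr13:94007959-94008200 in ENSG00000183098, with 130 and 112. The RBFOX2 sites differed without UV. The first had 186 and 62 reads with PAGE, 768 and 307 without UV with PAGE, and 1945 and 809 without UV and PAGE. The second had 334 and 308, 18 and 13, and 13 and 32 in the same order.

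Without the genes of the 3 sites that exceeded 1000 reads in at least 4 lists, a choice made after seeing the data, the share of read numbers without UV differed by −1.98 percentage points with PAGE (exact permutation p = 0.00463, not adjusted) and by −1.11 without PAGE (exact permutation p = 0.00154, not adjusted). The third of these sites is in ENSG00000166748, at chr15:87435269-87435270. It took 58805 and 73432 reads in the gel region of 75 to 100 kDa, where very long genes held 82.5% and 91.1% of the summed read numbers but 6.63% and 6.91% of the peaks. There the site is listed as 4 and 5 peaks within 100 nt with the same read number, so these shares count its reads 4 and 5 times. The highest peak alone was 20.4% and 18.1% of the summed read numbers. Those sums also count the site 4 and 5 times, so these percentages understate its share.

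Other libraries gave similar shares of peaks, as values without a test. Medium RNase (0.025 U) gave 7.54% and 7.55% for hnRNPA1 and 5.96% and 6.07% for hnRNPc. Libraries titled RecJ, the name of a DNA exonuclease, gave 7.96% and 8.12% for hnRNPA1, 6.25% and 6.57% for hnRNPc, 9.91% and 9.90% for hnRNPI, and 4.10% and 4.18% for RBFOX2. Libraries titled 500 gave 5.64% and 5.62% for hnRNPc, from lists of 279010 and 281738 peaks, although the labels give 50000 cells for them. Libraries titled 1k, with 1000 cells and 0.0001 U of RNase, gave 6.32% and 7.07% for hnRNPc and 4.41% and 4.89% for RBFOX2. Cell number and RNase differ together there. In the 8 gel region lists very long genes held 15 to 445 peaks per list, the most in the region of 75 to 100 kDa.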

How the data were processed

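Per the submitters' processing notes, reads were processed with bcl2fastq, UMI-tools 1.0.1 and STAR 2.7.3a on hg19; for trimming, peak calling settings and annotation, nothing is given in the sources used here. Each of the 68 deposited lists gives, per library, the peaks with a p-value by the authors' caller, unadjusted as far as stated. Peaks were grouped by the gene identifier in the peak name.

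Per library, the percent of peaks and of summed read numbers in very long genes and the mean position were computed. The 3 measures in 4 comparisons were tested by exact permutation over libraries within proteins, with Benjamini-Hochberg adjustment over 12 tests. Gene differences used limma 3.58.1 in R 4.3.3, one mean per group over 32 libraries, called at an adjusted p of 0.05. The scripts were tested on simulated data. On these, limma missed most of the small changes, and the first pass criteria, on recovery and on size, were not met and were replaced, the latter after its shortfall had been traced to the scaling by list total. A weighting of libraries by quality made false calls on them and was not run on the data; the scaled addition, which was, also made a few, in the comparison without UV and with PAGE.

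Named genes are the 12 with the most crosslinked peaks, the 3 longest spans, 2 on either side of the threshold, the 2 most 5′ and most 3′ with at least 200 peaks, and up to 2 called genes per direction and comparison with the largest difference; named peaks are 3 per protein, 1 per gene, by the smaller read number of both replicates without PAGE. The genes, lists and tests were chosen with earlier results of these data known. Planned gene lists could not be counted, since 0 identifiers matched a name in the gene table, and no sequence is shown because no genome of the build of the lists was used here. Alternatives were the p filter, 10000 peaks per list, peaks joined within 30 nt, other spans, other scalings, each library left out and a replicate block. Replicate numbers did not pair libraries.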

Additional observations from a re-analysis of the deposited data

Results flagged for a closer look

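Several differences ran in opposite directions between proteins, with both libraries of each protein on the same side; the differences between proteins were not tested. For the share of peaks when PAGE was omitted, hnRNPc rose by 1.77 and hnRNPI by 0.322 percentage points, while RBFOX2 changed by −1.48. For the share without UV and with PAGE, hnRNPc rose by 1.68, against −1.43 for hnRNPA1, −2.94 for hnRNPI and −4.31 for RBFOX2. The hnRNPc values with PAGE include the list of 3268 peaks.

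For the mean position when PAGE was omitted, the differences were 0.00395 for hnRNPA1, 0.0665 for hnRNPc and 0.00673 for hnRNPI, and −0.0255 for RBFOX2. Without UV and PAGE they were 0.0457 for hnRNPA1, 0.0369 for hnRNPI and 0.0718 for RBFOX2, and −0.0140 for hnRNPc.

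The site in ENSG00000166748 lies outside the comparisons. It had 58805 and 73432 reads in Background_75-100kDa and 21908 and 27501 in RBFOX2_10k, and no listed peak in any of the 32 compared libraries.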

How the results depend on the processing

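Alternatives were judged at an unadjusted p of 0.05, and the cause of a change was not tested unless given. Gene calls below count very long genes only. They show how a count moved with the setting, and not an excess over all tested genes. In some settings given above, very long genes were called no more often than all tested genes. Of 549 alternative values over 20 results, 452 stayed on the same side, 61 counts moved by over 1.5 times, 30 weakened, 5 reversed and 1 strengthened. With peaks of p below 1e-05, PAGE omission turned to −0.16 for the share of peaks and −0.0021 for the mean position, and the share of read numbers without UV was −0.48 without PAGE and −1.31 with it, with exact permutation p of 0.174 and 0.0586. With 10000 peaks per list the share of peaks was −0.79 for PAGE omission and −0.65 without UV and PAGE, and the share of read numbers 0.91 without UV and PAGE and −0.27 without UV with PAGE. Overlap between replicates was −0.55 for peaks of 4 to 10 reads.

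Replicate numbers did not pair libraries (correlations of same-numbered deviations −0.067 to 0.127 over 3368 genes). With the replicate block the share of peaks without UV and with PAGE (−1.75, exact permutation p = 0.102) and the share of read numbers without UV and PAGE (−0.74, exact permutation p = 0.117) lost their side of 0.05, and gene calls were 0, 108, 80, 0, 2, 68 and 108 in the order used here: PAGE omission, no UV without and with PAGE, hnRNPA1, hnRNPc, hnRNPI, RBFOX2.

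Gene calls without UV and with PAGE were 48 centred on the median gene, 49 with 2 added and 38 with the 0.5 scaled; without UV and PAGE 66 scaled. For hnRNPc they were 4 centred, 0 with 2 added, 0 with no filter, 1 scaled and 16 with p below 1e-05, which gave 1 for hnRNPA1 and 100 for hnRNPI. For hnRNPI they were 6 with 2 added, 37 with no filter and 25 scaled, and for RBFOX2 31 scaled. The scaled counts are out of 186 genes. Under that scaling, 18.1% of all tested genes were called without UV and with PAGE, and 28.2% without UV and PAGE. In the hnRNPc, hnRNPI and RBFOX2 comparisons the share of all tested genes was 1.45%, 8.96% and 19.8%. Genes of at least 1000000 nt, being fewer, gave 22 and 18 calls without UV, and 0, 15 and 21 for hnRNPc, hnRNPI and RBFOX2.

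With each library left out in turn, PAGE omission ranged from −0.23 to 0.53 for the share of peaks and −0.90 to −0.075 for that of read numbers; without UV and with PAGE these were −2.13 to −1.37 and −1.88 to −1.05, the ends coming from hnRNPc_50k_lowRNase replicates 1 and 2. The share of read numbers without UV and PAGE ranged from −0.81 to −0.66. Gene calls ranged from 0 to 42, 98 to 134, 71 to 126, 0 to 4, 0 to 21, 9 to 110 and 47 to 137 in the order above. Sequencing depth is unknown, so differences between lists of unequal length are limited by it.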
